A study of Mus musculus with 48 samples.

Results

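The bone marrow (BM) of mice in which ADAR1 cannot edit was compared with the BM of mice with active ADAR1, site by site. The 6 BM libraries, of 48 libraries from 8 tissues in the whole series, were taken by their labels: 3 from Adar1+/+ Ifih1-/- mice (WT) and 3 from Adar1E861A/E861A Ifih1-/- mice (E861A). All were male C57BL/6 mice, 12 weeks of age, and each library was described as an independent biological replicate of haematopoietic cells of the marrow. E861A is a germline point mutation, present in every cell, that leaves ADAR1 protein in place without deaminase activity. Both groups lacked Ifih1, which encodes MDA5, so neither group represents an animal with intact sensing of double-stranded RNA. Editing was measured by mmPCR-seq, in which stretches of cDNA with known editing sites are amplified with pooled primers and sequenced. Reads with G at a genomic A were counted as edited, and the editing level is the percentage of reads so edited.

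ADAR1 and ADAR2 convert adenosine to inosine in double-stranded RNA, and inosine is read as guanosine by the ribosome and by reverse transcriptase. Most mouse sites lie in 3′UTRs and introns, where inverted repeats fold back on each other, and a small group recodes proteins. MDA5 is the cytosolic sensor that responds to long double-stranded RNA, and its loss rescues the embryonic death of editing-dead ADAR1 mice.

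Summed coverage was 5447363, 1861831 and 8364948 reads in WT replicates 1, 2 and 3, and between 7449712 and 8228355 in the E861A libraries. WT replicate 2 stood apart: it had 1949 sites with more than 100 reads, against 5018 to 6806 in the other 5 BM libraries. Neighbouring sites share reads and are not independent. The panel transcripts of blood cells (Il7r, Mpeg1, Malt1, Slfn5 and Ifnar1) were read at 108 to 112 of their 126 sites in these 5 libraries and at 27 in WT replicate 2. The neuronal transcripts of the panel were also amplified in BM, at 8.54% to 58.5% of 246 sites per library, against 88.2% to 97.2% in brain libraries, so coverage after PCR is no measure of expression. In bulk tissue, fewer cells of a type that edits a site and less editing per cell cannot be told apart. The reads carry no molecular identifiers, and PCR copies are not independent molecules, which leaves the limits below as a measure of counting error alone.

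Sites from among the 15 largest falls are shown first. The 15 are called sites at which the genotypes did not overlap, 1 per gene, with intergenic sites left out. Sequences are 21 bases of the transcribed strand with the edited adenosine in capitals, read from the mm9 (NCBIM37) reference. The first 9 are called sites of different transcripts, all in 3′UTRs except the noncoding uc007vsb.1. The last 4 are the called coding site (Ccni) and 3 sites at which the values of the genotypes overlapped (Cog3, uc012aji.1 and Iqgap1).
Exoc8, minus strand, chr8:127417769-127417789: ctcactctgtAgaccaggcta
uc007vsb.1, plus strand, chr15:55087117-55087137: gcacacctttAaccctagccc
Mad2l1, plus strand, chr6:66490065-66490085: aatgtgtgttAttgttccatt
Rpa1, minus strand, chr11:75114507-75114527: aacagaaattAtgtcacaagt
Trim12c, minus strand, chr7:111487810-111487830: gtgtattcttAgtgatcactt
Mmgt1, minus strand, chrX:53840810-53840830: gtcagtgctaAgattataggt
Cds2, plus strand, chr2:132135359-132135379: tacagtgcttAatatgtgcca
Bri3bp, plus strand, chr5:125936965-125936985: cggagtttaaAgccagtctgg
Rhoa, plus strand, chr9:108239451-108239471: tttgtgaattAggctgtaact
Ccni, minus strand, chr5:93618600-93618620: tcttttggatAggtttttagc
Cog3, minus strand, chr14:76119516-76119536: cattaaggaaAtttccctgga
uc012aji.1, plus strand, chr17:6123037-6123057: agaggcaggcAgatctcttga
Iqgap1, minus strand, chr7:87857164-87857184: aagaaaaaggAaaaaaaaaag

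A site counted as covered with over 100 reads in 2 or more libraries of WT and of E861A; a library with 100 reads or fewer gave no value there. It counted as edited when the summed reads of the libraries with a value were edited above 1%, in WT or in E861A. Of 5095 covered sites, 538 were edited: 401 in 3′UTRs, 52 intergenic, 47 intronic, 23 in noncoding RNAs, 10 nonsynonymous, 3 synonymous and 2 in 5′UTRs. Of the 538 sites, 190 had 3 WT values and 348 had 2; the missing value was that of the shallow WT replicate 2 at 338 sites and that of WT replicate 1 at 10.

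The E861A mutation lowered editing at 27.0% of the 538 edited sites, in 60 genes and at 9 intergenic sites, and raised it at none past the threshold (0.0%). Levels were tested with limma after the transformation log2((level + 0.01)/(1 − level + 0.01)), and P values were adjusted by Benjamini-Hochberg over the 538 sites, with a threshold of 0.05. At an unadjusted P under 0.05, 32.2% of the sites were lower and 1 site was higher. The quasi-binomial model of reads gave 193 lower and 0 higher sites. A fit over all 48 libraries gave 217 lower and 36 higher sites, and limma on the untransformed level gave 11 lower sites. At 228 sites (42.4%) the highest E861A value was below the lowest WT value, and at 29 (5.39%) the lowest E861A value was above the highest WT value. Without WT replicate 1, 64 of 205 sites tested were lower (31.2%), without WT replicate 3, 70 sites or 40.0% of those tested, and without E861A replicate 1, 94 of 496 (19.0%). Without the shallow WT replicate 2, 28.8% of 524 sites were lower.

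At 32.2% of the edited sites every one of the 6 libraries had over 100 reads. The mean level over these sites was 8.12%, 10.9% and 6.67% in WT replicates 1, 2 and 3. It was 0.732%, 0.690% and 0.805% in the E861A replicates. The genotypes did not overlap. The means were 8.55% ± 2.13 (SD, n = 3) and 0.742% ± 0.0586 (SD, n = 3), and the mean level fell by 7.81 percentage points (P = 0.1 in a two-sided exact permutation test, in which 3 against 3 libraries cannot give a smaller P). When sites were selected without WT replicate 2, 467 sites gave a WT mean of 8.90% ± 1.87 (SD, n = 2), and the E861A mean was 0.722% ± 0.120 (SD, n = 3).

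Sites that lost editing were near the floor of the assay in E861A. The median of the mean levels at the lower sites was 16.7% in WT and 0.161% in E861A. At covered sites that were not edited in either genotype, the median level per library was 0.161% to 0.178% in E861A, 0.167% in WT replicate 3, and 0% in WT replicates 1 and 2. The lower sites were above 1% in every covered WT library, and 92.4% of them were at or below 1% in every covered E861A library. The highest single E861A value among them was 7.55%, at an intergenic site. At some sites no E861A read was edited. For the site in Cds2, which encodes a CDP-diacylglycerol synthase, this was 0 of 4670 reads, which allows a share of up to 0.0642%. For Mad2l1 it was 0 of 2999 reads (up to 0.10%) and for an intronic site of Gria3 0 of 1762 (up to 0.170%).

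**Figure D1:**
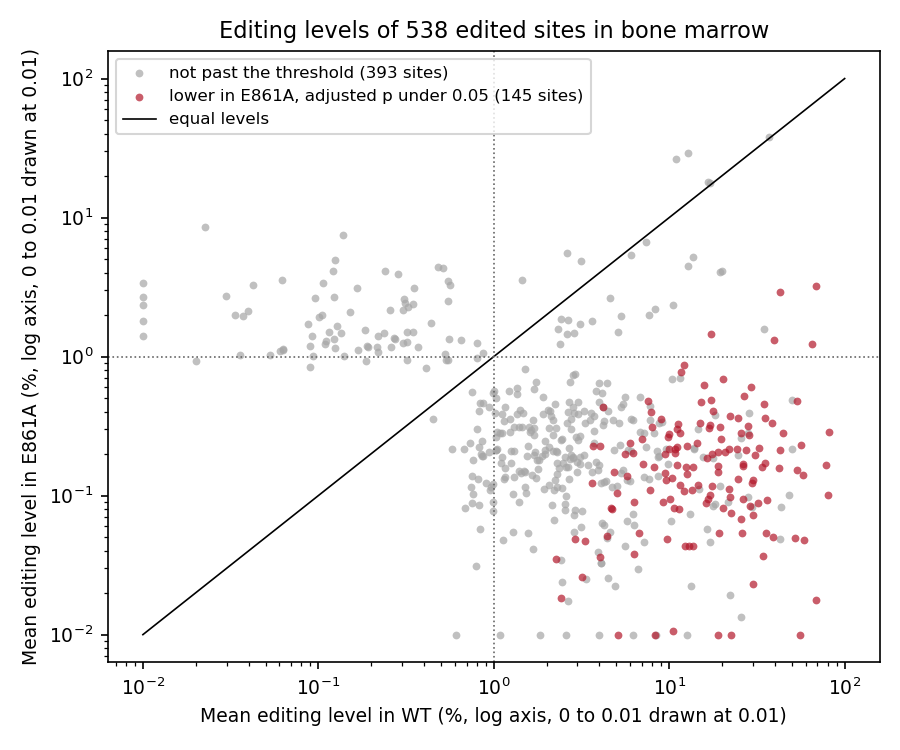
Mean editing level of each of the 538 edited sites in WT (horizontal) and E861A (vertical), both in percent on log axes, with levels below 0.01% drawn at 0.01% and dotted lines at 1%. The sites past the threshold (27.0%) all lie below the line of equal levels, and most of them lie below 1% in E861A.

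At the site with the largest fall, in the 3′UTR of Exoc8, a subunit of the exocyst that tethers secretory vesicles, the level was 94.8% of 116 reads in WT replicate 1 and 67.5% of 867 reads in WT replicate 3. It was 0.212% and 0.362% in E861A replicates 1 and 3, and the remaining libraries had 10 reads or fewer (log2 change −8.79 ± 1.08 SE, adjusted P = 0.00532, limma, n = 2 and 2). The site was therefore measured in 4 libraries, and the E861A values rest on 1 edited read each.

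At chr15:55087127, in the noncoding transcript uc007vsb.1, WT replicates 1 and 3 had 84.7% and 76.6%, and the E861A libraries had 0.231%, 0% and 0.0744%. The smallest adjusted P of the comparison was shared by this site and by sites in Mmgt1, Rhoa and Cds2 (log2 change −8.56 ± 0.462 SE, adjusted P = 0.000424, limma). Its neighbours at chr15:55087121 and chr15:55087114 also fell, from means of 42.5% and 16.5% to 0.157% and 0.187%.

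Mad2l1 encodes the spindle checkpoint protein MAD2, which holds cells in mitosis until chromosomes are attached. Its strongest site had 95.7% and 60.4% in WT replicates 1 and 3, and 0.394%, 0.0628% and 0.0451% in E861A replicates 1, 2 and 3 (adjusted P = 0.00264, limma). It carried the most called sites of any gene: 11 of 15 edited sites fell, beside 27.0% over all edited sites. The 11 lay over 670 bases of its 3′UTR, with WT means of 4.65% to 78.1% and E861A means of 0% to 1.23%. Every one of its sites had 2 WT values, with which values separate more readily than with 3. At all 15 the E861A values lay below the WT values, beside 42.4% over all edited sites.

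Rpa1, the large subunit of replication protein A, binds single-stranded DNA in replication and repair. At chr11:75114517 the level was 76.0%, 67.9% and 61.0% in WT replicates 1, 2 and 3, and 2.96% and 3.48% in E861A replicates 1 and 3, while E861A replicate 2 had no reads. The site fell (log2 change −5.64 ± 0.493 SE, adjusted P = 0.00124, limma), yet it was the called site with the highest mean in E861A, 3.22%, and the only called site above 1% in 2 E861A libraries. The E861A values came from 74 of 2501 and 124 of 3561 reads.

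Trim12c belongs to the TRIM family of ubiquitin ligases. Its 3′UTR site had 68.8% and 48.0% in WT replicates 1 and 3, and 0%, 0% and 0.143% in E861A (adjusted P = 0.00104, limma). The site of Mmgt1, a membrane magnesium transporter, had 55.5%, 69.3% and 45.5% in WT and 0.0949%, 0.282% and 0.317% in E861A (adjusted P = 0.000424, limma). At Cds2, WT had 67.4%, 69.8% and 29.5%, and all 3 E861A libraries had 0% (adjusted P = 0.00124, limma). WT replicate 3 was the lowest WT value at each of these sites.

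Rhoa encodes the small GTPase RHOA, a regulator of the actin cytoskeleton. Its site was read 3580 to 5655 times in the WT libraries and 2554 to 5012 times in E861A. The WT libraries had 42.4%, 49.9% and 35.3%, and the E861A libraries had 0.324%, 0.157% and 0.160% (log2 change −5.95 ± 0.394 SE, adjusted P = 0.000424, limma). The remaining sites among the 15 largest falls were in Bri3bp, Malt1 (a protease of antigen receptor signalling), C330018D20Rik, Ppp1r15b (a regulator of the eIF2α phosphatase), Rpl7l1, Mdc1 and Rnf168 (both of the DNA double-strand break response). Their WT means were 35.0% to 53.8% and their E861A means 0.0495% to 0.483%. C330018D20Rik showed the widest WT spread, 85.7% of 126 reads in replicate 1 and 19.1% of 805 reads in replicate 3.

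**Figure D2:**
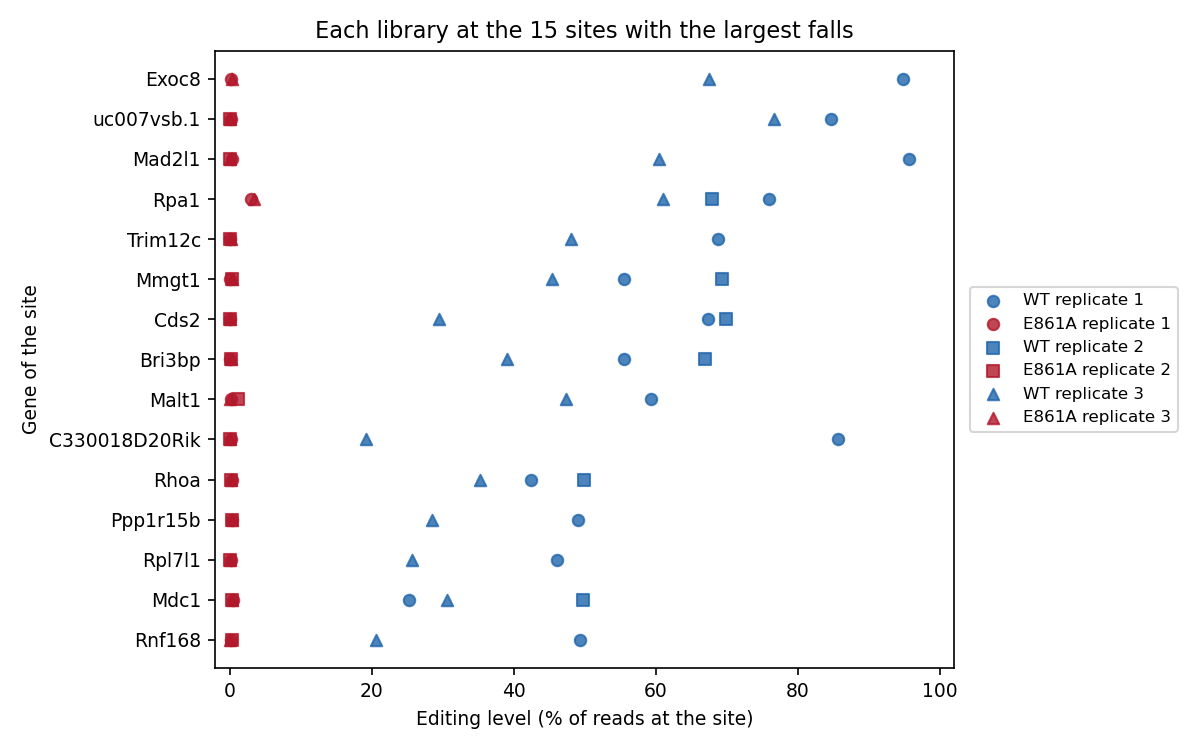
Editing level in percent of reads (horizontal) of every library with more than 100 reads at the 15 sites with the largest falls. Each gene has 1 row, intergenic sites are left out, colour gives the genotype and marker shape the replicate. The E861A values stay at or below 3.48% in every row, and the WT values range from 19.1% to 95.7%.

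The WT libraries differed in level at the lower sites. WT replicate 1 exceeded WT replicate 3 at 76.6% of the lower sites, with medians of 18.6% and 10.5% and a median ratio of 1.58. At the 57 of them read in all 3 WT libraries, the medians were 17.4%, 15.7% and 8.63% in replicates 1, 2 and 3. Replicates 1, 2 and 3 were the highest at 17, 37 and 3 of these sites. The median level at the lower sites was 0.155%, 0.112% and 0.140% in E861A replicates 1, 2 and 3, near the floor and thus with little room to spread. Whether the WT spread lies in the mice, in the cells or in the amplification was not tested.

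Calls followed the WT level. With the level taken from the WT reads together, 14 of 233 sites at 1 to 5% were lower, 31 of 75 at 5 to 10%, 44 of 79 at 10 to 20% and 45 of 58 at 20 to 50%. All 11 sites above 50% were lower; they lay in Bri3bp, Exoc8, Mad2l1, Malt1, Mmgt1, Rpa1, Trim12c and uc007vsb.1. The lowest mean WT level of a called site was 2.28%, in Ncl, which encodes nucleolin, and the smallest called fall was 2.24 percentage points. At 1 to 5%, 75 sites had separate genotypes in the lower direction, so most of those were not past the threshold.

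**Figure D3:**
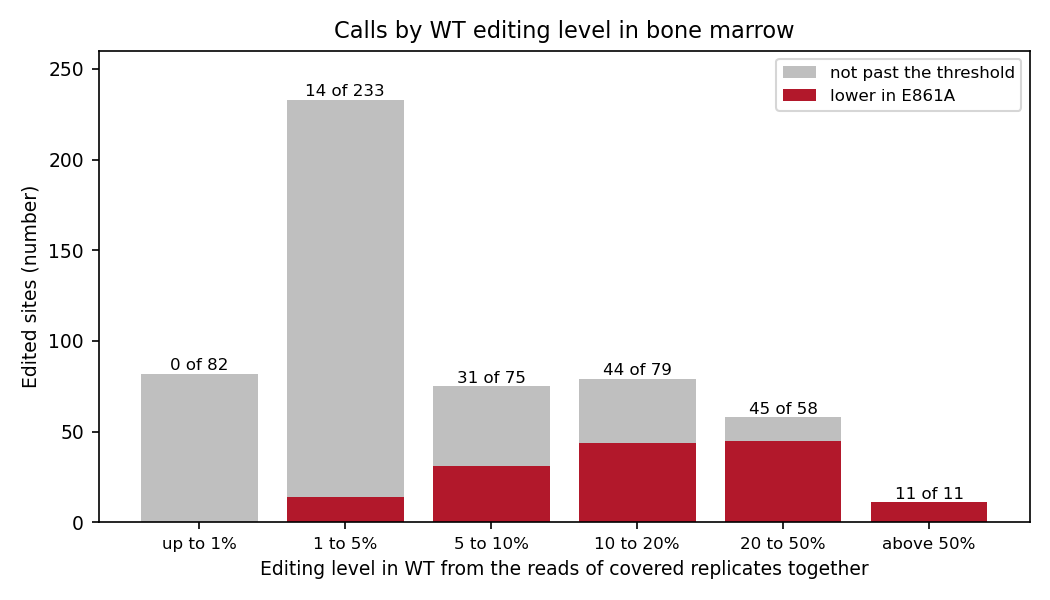
Number of edited sites (vertical) by the WT editing level in percent (horizontal, 6 ranges), with the sites lower in E861A in red and the others in grey. The share that passed the threshold rises from 14 of 233 sites at 1 to 5% to 11 of 11 above 50%.

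Of the 456 sites edited in WT, 35 were also above 1% in E861A, a share of 7.68%. Of these 35, 20 exceeded 1% in exactly 1 E861A library, 11 in 2 and 4 in 3, and 14 exceeded it in exactly 1 WT library. In the other direction, 29.9% of the 117 sites edited in E861A were edited in WT. Another 82 sites passed the limit in E861A only, with a median E861A mean of 1.50%. They were mostly seen in a single library: 71 of the 82 exceeded 1% in exactly 1 E861A library, 11 in 2 and 0 in 3. The 71 were divided over E861A replicates 1, 2 and 3 as 20, 28 and 23. None of the 82 passed the test.

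Single-library sites were also common in WT. Of the 421 sites above the limit in WT only, 216 exceeded 1% in exactly 1 WT library: 66 in replicate 1, 9 in replicate 2 and 141 in replicate 3. Their level reached 100%. WT replicate 2 gave no value at 338 of the 538 edited sites, so its 9 cannot be set against the other counts. At 2 adjacent sites of Bri3bp, chr5:125937846 and chr5:125937847, WT replicate 1 had 99.7% of 668 reads and 100% of 677 reads, and WT replicate 3 had 0.186% of 1073 and 0.196% of 1023 (adjusted P = 0.348 and 0.357, limma). Rnf168, a ubiquitin ligase of the DNA damage response, showed the same kind of split over a short stretch. At chr16:32299949, chr16:32299967 and chr16:32299976 WT replicate 1 had 51.1%, 55.7% and 51.5%, and WT replicate 3 had 0.146%, 0.312% and 0%.

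**Figure D4:**
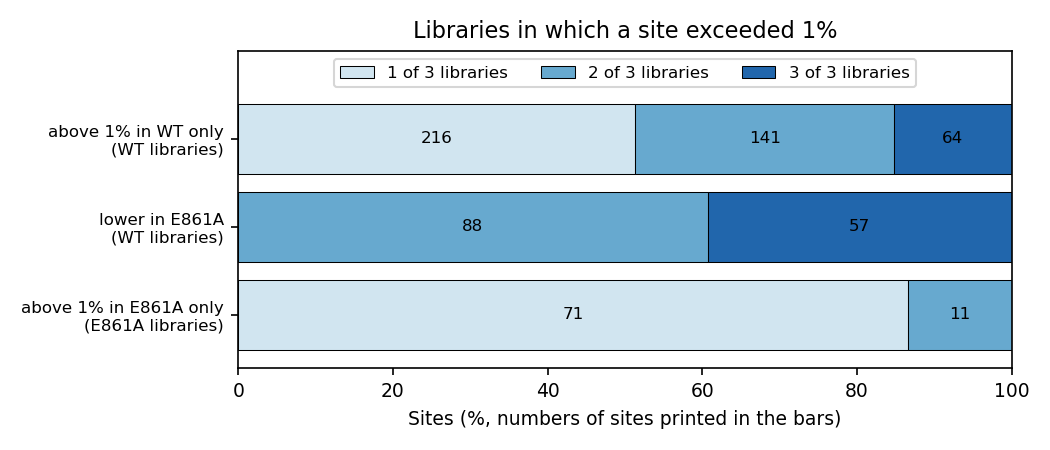
Share of sites in percent (horizontal) that exceeded 1% in 1, 2 or 3 libraries, for sites above the limit in WT only, for sites lower in E861A (both counted over WT libraries) and for sites above the limit in E861A only (counted over E861A libraries). The counts are 216, 141 and 64 of 421, then 0, 88 and 57 of the lower sites, then 71, 11 and 0 of 82. A library without a value at a site is not counted as above 1%. The 88 lower sites had 2 WT values, both above 1%, and 266 of the 421 sites had 2 WT values.

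High single values in E861A followed the same pattern. At 4933404O12Rik, E861A replicate 2 had 25.1% of 1189 reads, while replicates 1 and 3 had 0% and 0.407% and WT had 0% to 0.0675%. At Samd8, a sphingomyelin synthase-related gene, E861A replicate 3 had 21.9% of 743 reads and the other E861A libraries 0.321% and 0.307%. An intronic site of Adarb1, the gene of ADAR2, had 19.4% in E861A replicate 3 and 14.8% in WT replicate 3, and at most 0.583% in E861A replicates 1 and 2 and WT replicate 2. None of the 3 passed the test (adjusted P of 0.355, 0.407 and 0.881, limma). The single site with an unadjusted P under 0.05 and a higher level in E861A, an intronic site of 2810422J05Rik, had 5.23% and 3.55% in E861A and 0% and 0.966% in WT (adjusted P = 0.133, limma). It was chosen for mention after its value was seen.

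At a few sites with levels above 10% the values of the genotypes overlapped. In the noncoding uc012aji.1 the 2 covered WT libraries had 35.8% and 37.9% and the E861A libraries 35.7%, 38.2% and 39.1% (log2 change 0.05 ± 0.417 SE, adjusted P = 0.913, limma). At chr7:87857174 in Iqgap1, a scaffold protein of the cytoskeleton, WT had 17.0%, 15.1% and 18.0% and E861A 17.4%, 17.0% and 19.9% (log2 change 0.14 ± 0.344 SE, adjusted P = 0.730, limma). As its sequence shows, this A stands in a stretch made mostly of A. Other Iqgap1 sites fell: at chr7:87857276, 8.77%, 5.40% and 4.74% in WT became 0.0998%, 0% and 0.170% in E861A. The bases printed for uc012aji.1, with any base at the edited position, occur at 303 other places in the reference, and 56 of these have G there, so these 21 bases alone do not tell its reads from those of other copies. For Exoc8 the number was 1761 places, 15 of them with G. Of the 538 edited sites, 247 have at least 1 such copy and 31.4% have one with G.

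In 2610044O15Rik the 2 sites annotated as 5′UTR had 26.7% and 31.7%, and 23.4% and 28.9%, in E861A replicates 1 and 3. WT replicate 3 had 24.4% and 21.9% there, but WT replicate 1 had 1.15% and 0% (adjusted P = 0.333 for both, limma). In Ankrd28, a regulatory subunit of a protein phosphatase, 3 neighbouring sites had 3.68% to 11.3% in E861A replicates 1 and 3 and 0% in E861A replicate 2. The WT means there were 19.9%, 13.6% and 19.5%, the E861A means 4.11%, 5.16% and 4.07%, and none of the 3 passed the test. Between them, at chr14:32513849, the level fell from 31.7% and 29.7% in WT to 0.424%, 0% and 0.168% in E861A. Of 13 edited Ankrd28 sites, 5 fell.

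Grouped by annotation, 127 of 401 3′UTR sites were lower (31.7%), beside 27.0% over all edited sites. The counts were 9 of 52 for intergenic sites, 5 of 47 for introns, 3 of 23 for noncoding RNAs, 1 of 10 for nonsynonymous, 0 of 3 for synonymous and 0 of 2 for 5′UTR sites. Over the 472 edited sites read in the 5 deeper libraries, the 355 3′UTR sites had a mean WT level of 9.51% ± 2.31 (SD, n = 2), beside 0.531% ± 0.108 (SD, n = 3) with the mutation. The WT and E861A means were 6.86% and 0.685% over 51 intergenic sites, 4.49% and 1.07% over 33 intronic sites and 9.71% and 2.36% over 23 sites of noncoding RNAs. Over 8 nonsynonymous sites they were 6.90% ± 4.83 (SD, n = 2) and 2.73% ± 0.412 (SD, n = 3), and over 2 synonymous sites 0.709% and 0.721%. At the 7 nonsynonymous sites read in all 6 libraries, the WT libraries had means of 3.74%, 4.40% and 3.99%, and the E861A libraries 3.60%, 3.06% and 2.67%. Cog3, with means of 17.1% in WT and 17.7% in E861A, is in both nonsynonymous sets. Blcap, at 56.3% in WT replicate 1 and 0% in WT replicate 3, is in the set of 8. At the 6 noncoding sites read in all 6 libraries the genotypes overlapped. WT had means of 0.886%, 0.0971% and 1.02%, and E861A 0.752%, 4.39% and 0.284%. The 4.39% of E861A replicate 2 includes 25.1% at 1 site, in 4933404O12Rik, where every other library had at most 0.407%. The intronic calls were in Specc1, Zkscan3 and Gria3. At the strongest, in Specc1, WT had 43.8%, 11.4% and 23.9% and E861A 0.410%, 0.0549% and 0.0435% (adjusted P = 0.00264, limma). Gria3 encodes a glutamate receptor subunit of neurons. Its intronic site had 11.3% and 5.41% in WT replicates 1 and 3 and 0% in all E861A libraries (adjusted P = 0.0103, limma).

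Of the 22 genes in a list of conserved recoded transcripts, 12 had covered coding sites in BM, 54 in all, and 8 of these 54 were edited. None of the 8 passed the test, beside 27.0% of all edited sites, and 8 sites are too few to set the recoded transcripts apart. The called coding site was the Arg-to-Gly site of Ccni, which encodes cyclin I. It had 4.37%, 5.33% and 2.41% in WT and 0.136%, 0.248% and 0.300% in E861A (log2 change −2.05 ± 0.477 SE, adjusted P = 0.0187, limma), and no E861A value reached a WT value.

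The Ile-to-Val site of Cog3, a subunit of the Golgi tethering complex, had 15.8%, 21.3% and 14.2% in WT and 21.9%, 15.7% and 15.5% in E861A, over 2320 to 5677 reads. The genotypes overlapped (log2 change 0.06 ± 0.396 SE, adjusted P = 0.897, limma), and Cog3 was, with uc012aji.1, Iqgap1 at chr7:87857174 and Stam, among the sites above 1% in all 3 E861A libraries. Stam, an endosomal sorting protein, had 3.33% and 1.90% in WT and 1.61%, 1.56% and 1.17% in E861A (adjusted P = 0.426, limma). The synonymous site next to the Cog3 site, at chr14:76119527, had 0.228% to 0.921% in WT, 3.38% in E861A replicate 1 and at most 0.374% in the other E861A libraries.

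At the Tyr-to-Cys site of Blcap, an apoptosis-related gene, WT replicate 1 had 56.3% of 197 reads and WT replicate 3 had 0% of 1186 reads. The E861A libraries had 0.115%, 0.0913% and 0.0852% (adjusted P = 0.322, limma). WT replicate 2 had 36 reads there, below the minimum, of which 20 were edited. The Gln-to-Arg site of Flna, a filamin that cross-links actin, had 0.399%, 1.66% and 0.541% in WT and 1.50%, 0.381% and 1.30% in E861A (adjusted P = 0.795, limma). The Ile-to-Val site of Copa, a subunit of the COPI vesicle coat, had 1.93%, 1.10% and 0.642% in WT and 1.15%, 0% and 0.546% in E861A. The Arg-to-Gly site of Gria3 had 9.12% in WT replicate 3, 4.46% in E861A replicate 2 and at most 0.692% elsewhere.

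The number of lower sites varied by gene. Mad2l1, Rpa1, Slc35e1, Ankrd28 and Rnf168 had 5 or more each, while 29 genes had 1 lower site each, and in 18 genes every edited site was lower. In Slc35e1, a solute carrier, 6 of 15 sites fell, from 13.7% to 28.1% in WT to at most 0.472% in E861A. In Rpa1 6 of 15 fell, all with 3 WT values.

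Bri3bp, which encodes a transmembrane protein that binds BRI3, had 16 edited sites over 981 bases of its 3′UTR and 3 calls. At its strongest site, chr5:125936975, WT had 55.5%, 67.0% and 39.0% and E861A 0.0676%, 0.192% and 0.197% (adjusted P = 0.000523, limma). The site 4 bases downstream, chr5:125936979, had 4.51%, 0% and 0.193% in WT, and the one at chr5:125936957 had 0.134%, 0.0701% and 3.25%. Thus reads over the same stretch carried one strong site in all WT libraries and weak ones in a single library each. The other calls were chr5:125937297 (57.6% and 20.4% in WT, 0%, 0% and 0.150% in E861A) and chr5:125937133 (8.27% and 17.7% in WT, 0%, 0.129% and 0% in E861A). Of the 16 sites, 11 exceeded 1% in exactly 1 WT library, and 15 stayed below 1% in every E861A library.

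Grouped by function, 30 of 74 edited sites fell in genes of DNA repair and the cell cycle, with a called site in 8 of 12 genes, beside 37.3% of all genes with an edited site. These were Mad2l1, Rpa1, Rnf168, Mdc1, Taok1, Cep68, Dclre1c and Parg. The median of the mean levels at all 74 sites was 6.25% in WT and 0.143% in E861A, beside 3.27% and 0.223% over the 538 edited sites. Metabolic enzymes gave 21 of 53 sites in 7 of 10 genes. Among them, Pfas, an enzyme of purine synthesis, fell at all 4 edited sites, and its strongest had 55.9% and 12.8% in WT and 0.0675%, 0% and 0.0428% in E861A (adjusted P = 0.00903, limma).

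Genes of RNA metabolism, translation and nuclear transport gave 15 of 49 sites in 6 of 14 genes, including all 4 sites of Nup155, a nuclear pore component, and 3 of 11 in Ncl. At Ppp1r15b, the strongest site of this list, the level was 49.1% and 28.5% in WT and 0.319%, 0.287% and 0.396% in E861A (adjusted P = 0.00157, limma). Immune and interferon genes gave 7 of 25 sites in 5 of 10 genes: Trim12c, Malt1, Dtx3l, Mpeg1 and Rab27a. Membrane traffic genes gave 4 of 18 in 3 of 10 genes, Exoc8, Atl3 and Wipi2, and the recoded transcripts gave 1 of 9, the intronic site of Gria3. Across these lists the share of lower sites was 40.5%, 39.6%, 30.6%, 28.0%, 22.2% and 11.1%, beside 27.0% over all edited sites. No list held a site that was higher past the threshold.

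The base 5′ of the edited adenosine, which the choice of sites did not use, differed between sets. All 5095 covered sites carried A on their annotated strand. T (U in RNA) stood before the site at 53.8% of the lower sites, 33.8% of edited sites, 19.5% of covered sites and 8.54% of the 82 sites above the limit in E861A only. G stood there at 2.07% of the lower sites (3 sites), 23.2% of covered sites and 30.5% of the E861A-only sites. G after the site was found at 42.8% of the lower sites, 39.9% of the edited sites that were not called, 43.9% of the E861A-only sites and 35.0% of covered sites. In the sequences printed above, T precedes the capital A in Exoc8, uc007vsb.1, Mad2l1, Rpa1, Trim12c, Cds2, Rhoa and Ccni, and G precedes it in Iqgap1. By the same count, 42.9% of the edited sites with T before them were lower, 24.5% with A, 17.9% with C and 4.55% with G. The lower sites fall in 72 loci, so these shares describe neighbouring sites together.

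An inverted repeat was counted where a stretch of at least 50 bases around the locus matched the opposite strand within 2000 bases at 70% identity or more. It was present at 42.1% of the lower sites, 41.4% of edited sites, 24.1% of covered sites and 60.8% of the 74 sites with a mean WT level of 20% or more. Among edited sites, 61 of 223 with an inverted repeat and 84 of 315 without were lower (27.4% and 26.7%).

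Spleen and thymus are the other blood-forming or lymphoid organs of the panel. Every site lower in BM was covered in both. Because the call rests on a high WT and a low E861A level in BM, the BM values at these sites follow from the choice of sites, and the levels are given as a description. The median of their mean WT levels was 16.7% in BM, 1.57% in spleen and 6.56% in thymus, and the median in E861A was 0.161%, 0.183% and 0.151%. WT exceeded 1% at 57.9% of them in spleen and at 93.8% in thymus. Of the 105 covered in brain, 54 (51.4%) exceeded 1% in E861A brain. The labels do not say whether tissues came from the same mice.

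The effect of E861A differed between BM and spleen at 72 of 627 sites (11.5%), and all 72 had the more negative change in BM (limma interaction contrast over 12 libraries, 121 at an unadjusted P under 0.05). The sites tested were covered in both tissues and edited in either of them. All 72 were among the sites lower in BM, so that call and this count share the BM libraries. Their median WT level was 22.6% in BM and 0.382% in spleen, and their median E861A level 0.162% and 0.176%. These sites were chosen by that difference; over all 627 sites the median WT level was 2.54% in BM and 0.402% in spleen. The largest differences were at Exoc8 (81.2% in WT BM, 0.0999% in WT spleen), uc007vsb.1 (80.7% and 0.362%) and Cds2 (55.6% and 0.144%). Rhoa did not differ, with 42.5% in WT BM, 42.6% in WT spleen, and 0.214% and 0.257% in E861A (log2 difference −0.04 ± 0.456 SE, adjusted P = 0.960, limma). Trim12c had 58.4% and 53.6% in WT (log2 difference −0.46 ± 0.597 SE, adjusted P = 0.594, limma). Without WT BM replicate 1 the count was 28 of 238, and without WT BM replicate 3 it was 31 of 211. Without WT spleen replicate 1, 7 of the 83 sites that differed had the less negative change in BM, and without WT spleen replicate 3, 1 of 74 did.

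**Figure D5:**
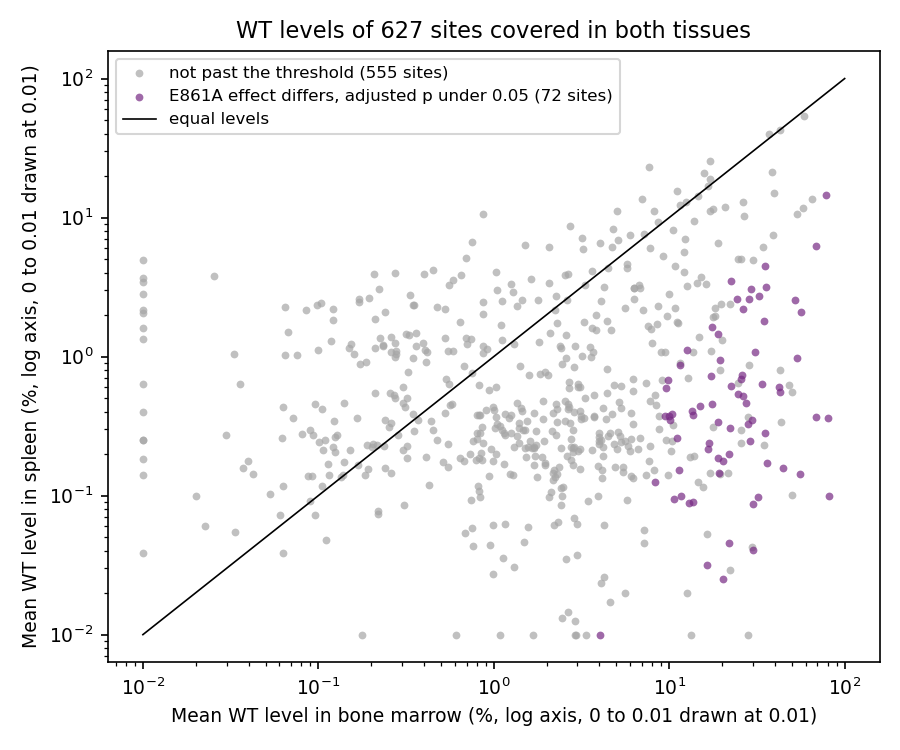
Mean WT editing level in BM (horizontal) and in spleen (vertical) of the 627 sites covered in both tissues and edited in either. Levels are in percent on log axes, with levels below 0.01% drawn at 0.01%. The 72 sites whose E861A effect differed lie below the line of equal levels, with medians of 22.6% in BM and 0.382% in spleen, beside 2.54% and 0.402% over all 627 sites.

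The WT thymus libraries stood apart from each other: 0.682%, 1.47% and 0.251% of their summed coverage was edited, against 0.368% to 0.467% in WT spleen and 1.10% to 1.44% in WT BM. Between BM and thymus, 0 of 698 sites differed past the threshold (0.0%, limma interaction contrast), and 39 had an unadjusted P under 0.05. These sites too were covered in both tissues and edited in either. At Exoc8, WT had 81.2% in BM and 4.21% in thymus, and the difference did not pass (log2 difference −7.65 ± 1.97 SE, adjusted P = 0.377, limma). The count was 8 without WT thymus replicate 2, each more negative in BM, and 3 without WT thymus replicate 3, each less negative in BM.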

How the data were processed

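For each library the authors deposited a table of 48715 positions with coverage and edited reads as raw counts, and the editing level as a fraction, which equals their ratio within 0.0005. They are not normalized. The submitters' processing notes name STAR, SAMtools and mm9. Coverage followed the study's methods (over 100 reads in 2 of 3 replicates of both genotypes); their limit of 0.01 on the level was applied here to the summed reads of either genotype. The methods' ANOVA criterion was an alternative, and the test was limma 3.58.1 (lmFit, eBayes with trend) in R 4.3.3, with Benjamini-Hochberg adjustment, tested on simulated data. Tables were handled in Python 3.11.15 with pandas 2.3.3, and sequences read with samtools 1.23.1 and pysam 0.24.0 from mm9 (NCBIM37). Inverted repeats were found with blastn 2.17.0. The members, gene lists and tests were chosen with earlier results of these data known. Sites named are the 15 largest falls with separate genotypes (1 per gene, intergenic sites left out), the coding sites and all Bri3bp sites. Also named are the 2 strongest WT sites per list and class, the 8 highest in E861A and the 3 largest interactions. Further sites of genes with many edited sites, and single-library examples, were chosen after their values were seen. Libraries with over 100 reads at a site had equal weight whatever their depth. Some sites that this rule names are not reported here. Some counts are given as shares of the sites tested. 2 comparison tables in a matrix format were not used.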

Additional observations from a re-analysis of the deposited data

Results flagged for a closer look

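The effect of E861A on editing differed between BM and spleen at 72 sites by a limma interaction contrast, each more negative in BM. The 3 largest differences in log2 change, BM minus spleen, were −9.07 at Exoc8 (adjusted P = 0.000476), −8.47 at uc007vsb.1 (adjusted P = 9.08e-05) and −6.90 at Cds2 (adjusted P = 0.000321). WT spleen had 0.0999%, 0.362% and 0.144% at these 3 sites, and was above 1% at 17 of the 72. A WT level this low leaves little room for a fall in spleen. Groups of 3 libraries were too small for a check of single outlying samples.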

How the results depend on the processing

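The share of edited sites lower in E861A (27.0%) became 59.6% with an edited limit of 0.05 (136 of 228), 17.8% with an offset of 0.05 (96 sites) and 2.04% on the untransformed level (11 sites), and was 19.0% to 40.0% with 1 replicate left out. With all 3 replicates of both genotypes covered, 59 sites were lower (34.1%). The 0 higher sites became 36 in a fit over all 48 libraries. The labels do not say whether replicate numbers pair the mice. At the sites read in all 6 libraries, deviations from the genotype mean correlated at −0.119, 0.0102 and −0.109 between same-numbered WT and E861A libraries. With E861A levels near the floor, these values do not settle it. With the replicate number as a block, 126 sites were lower, 109 of them also without the block, and 2 were higher; the interaction counts were 72 for spleen and 0 for thymus. The methods' criterion gave 107 lower sites. The share of WT-edited sites kept in E861A was 4.04% with an edited limit of 0.05, and 5.08% to 9.84% with 1 replicate left out. The difference in mean level stayed below 0 at every setting, and was −16.5 percentage points with that limit. The spleen count was 20 with all replicates covered and 28 to 83 with 1 left out; the thymus count was 0 to 8 with 1 left out. For the 23 named lower sites, 357 of 384 refits stayed past the threshold, and none changed sign. Of the 27 that did not, 14 were on the untransformed level. These sites were named mostly for large falls or high WT levels in these data. Of all lower sites that were tested again, 66.2% were kept with an offset of 0.05 and 7.59% on the untransformed level. The share was 66.7% to 71.6% without 1 E861A replicate, 94.7% to 100% without 1 WT replicate and 73.1% with the methods' criterion. Most sites have 2 WT values because WT replicate 2 was shallow. How far this depth limits the calls at low-level sites was not tested.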
